A study of Rattus norvegicus with 9 samples.

Results

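The Hedgehog axis that runs from the epithelial ligand Ihh to the endometrial stroma was followed through 9 genes of the rat endometrium, namely Ihh, Ptch1, Smo, Gli1, Gli2, Gli3, Hhip, Nr2f2 and Hand2. They were chosen by symbol, each symbol stood on 1 row, and they make up 9 of the 22250 rows of the deposited expression table. Polyadenylated RNA was sequenced in 9 libraries, 3 in each of 3 groups of female Sprague-Dawley rats, 10 weeks old and mated after the drug or saline period. LER+LIG rats received hydroxyurea by gavage at 450 mg/kg/d for 10 days, adrenaline under the skin at 0.3 mg/kg/d from day 4 to day 10, and the agent labelled LIG by gavage at 40 mg/kg/d from gestational day 0.5. LER rats received the same hydroxyurea and adrenaline and then olive oil in place of LIG. NER rats received saline on both routes and then olive oil. The labels give the tissue as endometrium in the titles and as uterus elsewhere, and do not state how many animals stand behind the libraries, so a p-value here weighs a difference against the scatter among libraries, part of which may be technical. No label read here states the gestational day of tissue collection.

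Indian hedgehog is a secreted ligand that binds Patched, which relieves the membrane protein Smoothened from inhibition and lets GLI transcription factors act on their target genes. Ptch1, Gli1 and Hhip are themselves classical targets of the pathway, and their transcripts are often read as its output. In the mouse uterus, progesterone acting through its receptor induces Ihh in the epithelium, and the stroma below answers with Patched, GLI and the nuclear receptor COUP-TFII, encoded by Nr2f2. Hand2, a further progesterone-dependent stromal transcription factor in the mouse, restrains fibroblast growth factors that would otherwise drive epithelial growth.

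Promoter sequence was available for 6 of the 9 genes, as windows of 300 bases from 250 bases before to 50 bases after the RefSeq start of each gene, build GRCr8. The windows were searched on both strands for GACCACCCA, the core sequence known to be bound by GLI proteins, and for its shorter form CCACCCA, which lies within it. Ptch1, at chr17:1555321-1555620 on the plus strand, held the longer form once on the opposite strand, 172 to 164 bases before the start. Gli3, on the minus strand of the same chromosome, held only the shorter form, also on the opposite strand, 76 to 70 bases before the start, and the stretch shown covers chr17:54405218-54405324. Both are printed because they hold the motif, in the direction of transcription, with the match in capitals.
Ptch1: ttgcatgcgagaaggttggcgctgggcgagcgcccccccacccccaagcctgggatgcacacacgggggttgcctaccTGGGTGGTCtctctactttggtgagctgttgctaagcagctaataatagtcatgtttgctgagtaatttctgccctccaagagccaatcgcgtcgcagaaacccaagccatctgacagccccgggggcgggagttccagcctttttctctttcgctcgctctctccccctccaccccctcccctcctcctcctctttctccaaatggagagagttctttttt
Gli3: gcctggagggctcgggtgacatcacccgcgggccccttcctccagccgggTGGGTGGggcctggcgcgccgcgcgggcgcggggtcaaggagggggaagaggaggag
The longer form was found in 0.387% of 33365 promoter windows of the same table and the shorter form in 8.85%. Neither form was found in these windows of Smo, Gli2, Hhip and Hand2, which says only that these letters are not in them. Ihh, Gli1 and Nr2f2 have no entry. A match is a description of the sequence and not evidence of binding.

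Libraries held 13241537 to 15354085 counts. Values below are CPM, counts scaled to a common library size, after adjustment of the libraries by the trimmed mean of M-values (TMM), and fold changes come from edgeR's quasi-likelihood test fitted to all 14232 genes that passed its filter on low counts. Of the 9 genes, 8 passed that filter and Hhip did not. Epithelium, stroma and smooth muscle were all represented, with Epcam at 183 to 393 CPM, Pdgfra at 344 to 789 CPM and Acta2 at 1170 to 5050 CPM. Along the first principal component of all tested genes, which took 44.4% of the variance, LER+LIG replicates 2 and 3 and NER replicate 3 lay at 71.3, 74.0 and 84.5, while the other 6 libraries lay between -68.1 and -28.7. These 3 libraries cut across the groups. For LER+LIG over LER, Ihh, Ptch1, Gli1, Gli2, Gli3 and the gene lists are given below with and without them. In whole tissue, fewer cells of a type and less RNA per cell cannot be told apart.

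Ihh, the ligand, was at 37.5, 5.38 and 1.24 CPM in LER+LIG replicates 1 to 3, against 66.3, 54.6 and 19.8 CPM in LER and 30.6, 74.7 and 2.97 CPM in NER. The lowest 3 libraries were LER+LIG replicates 2 and 3 and NER replicate 3, and the groups overlapped. Group means were 14.7 ± 19.8 CPM in LER+LIG, 46.9 ± 24.2 CPM in LER and, for NER, 36.1 ± 36.2 CPM (SD, n = 3 each), so that in LER+LIG and NER the spread was as large as the mean. The log2 fold change was -1.68 ± 1.23 (SE) for LER+LIG over LER, with an unadjusted p of 0.206 in edgeR's test. It was -1.30 ± 1.22 for LER+LIG over NER and 0.38 ± 1.20 for LER over NER. None of these differences had an unadjusted p under 0.05 in edgeR's test. Without NER replicate 3 the last value was -0.17, and without LER+LIG replicate 1 the first was -3.84.

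**Figure D1:**
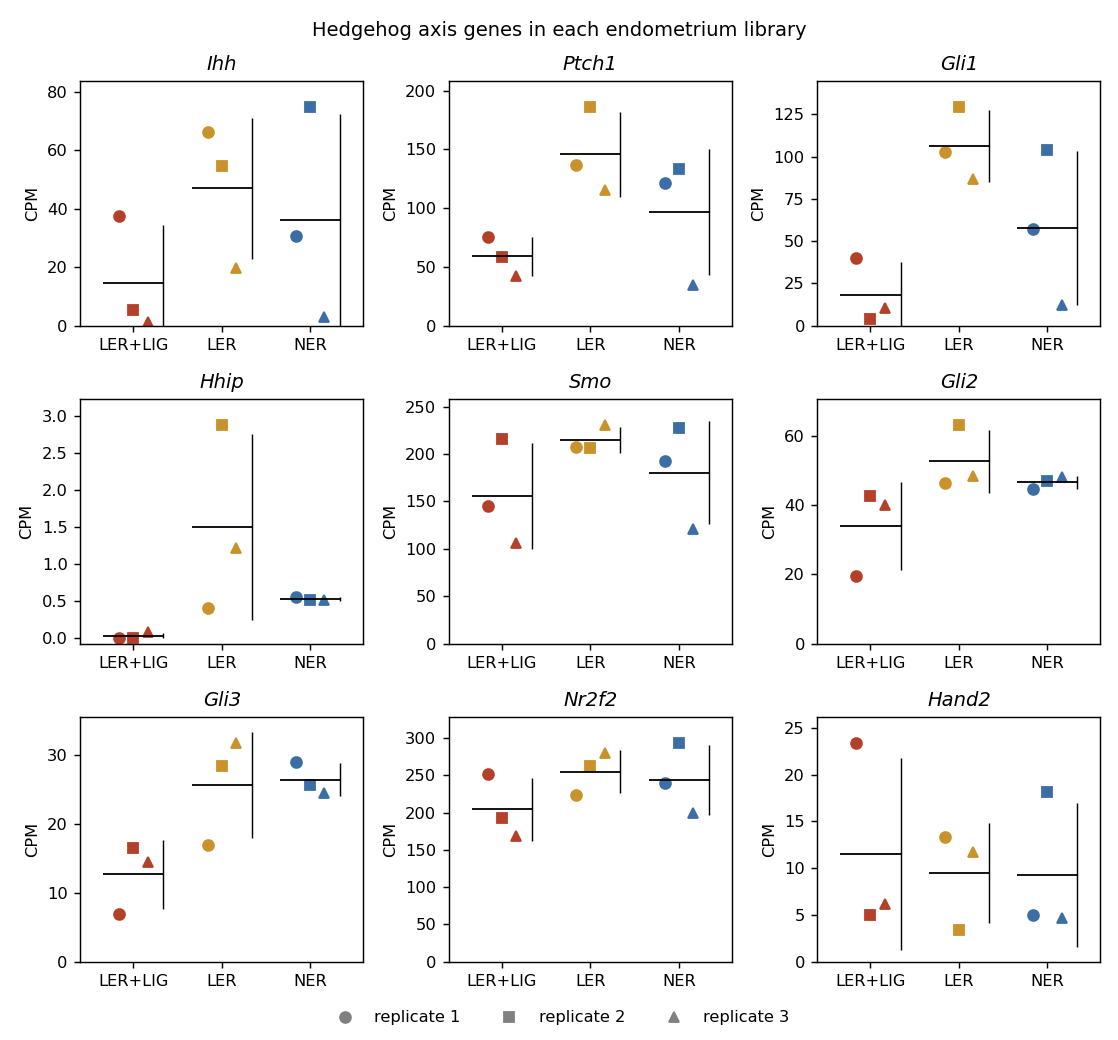
TMM-scaled CPM of the 9 genes (y axes, from 0) in the LER+LIG, LER and NER libraries, with 1 point per library, symbols for replicate numbers, a horizontal line at the group mean and a vertical line of 1 SD on each side, not drawn below 0. Ihh ranges from 1.24 to 37.5 CPM in LER+LIG, 19.8 to 66.3 CPM in LER and 2.97 to 74.7 CPM in NER, and Ptch1 and Gli1 are below every LER library in all 3 LER+LIG libraries.

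Ptch1, the receptor that holds Smoothened in check and is itself induced by the signal, was at 75.8, 58.7 and 42.1 CPM in LER+LIG, against 137, 186 and 115 CPM in LER and 122, 133 and 34.7 CPM in NER. Every LER+LIG library was below every LER library, whereas the NER libraries spanned both ranges because NER replicate 3 was the lowest of all 9. Group means were 58.8 ± 16.9 CPM in LER+LIG, 146 ± 36.2 CPM in LER and, for NER, 96.3 ± 53.7 CPM (SD, n = 3 each). The log2 fold change for LER+LIG over LER was -1.31 ± 0.46 (SE), with an unadjusted p of 0.0195 and an adjusted p of 0.361 in edgeR's test. For LER+LIG over NER it was -0.71 ± 0.46, and for LER over NER it was 0.60 ± 0.46.

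Smo, which encodes the signal-passing membrane protein Smoothened, was at 145, 216 and 106 CPM in LER+LIG, against 208, 206 and 230.2 CPM in LER and 193, 227 and 121 CPM in NER. The groups overlapped, and the LER libraries lay closest together, with SDs of 55.9 CPM in LER+LIG, 13.5 CPM in LER and 54.3 CPM in NER. It had a log2 fold change of -0.46 ± 0.31 (SE) for LER+LIG over LER, with an unadjusted p of 0.171 in edgeR's test.

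Hhip, a membrane protein that binds Hedgehog ligands and a target of the pathway, was scarce, with 90 counts over the 9 libraries. It had 0, 0 and 1 counts in LER+LIG, against 6, 43 and 17 counts in LER and 8, 8 and 7 counts in NER. All 3 LER+LIG libraries were below every LER and NER library. A count of 0 allows a level of up to 0.249 CPM in LER+LIG replicate 1 and 0.204 CPM in LER+LIG replicate 2, so a low level there was not detectable at this depth. The ratio of the summed level in LER+LIG to that in LER was 0.0167, with an exact 95% interval of 0.000417 to 0.0964. Without LER replicate 2, which held most of the LER counts, it was 0.0316 (0.000766 to 0.194). The ratio of LER+LIG to NER was 0.0483 (0.00117 to 0.297). That of LER to NER was 2.89 (1.78 to 4.87), and 1.53 (0.821 to 2.85) without LER replicate 2. These intervals cover counting error only, not the spread between libraries.

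Gli1, the GLI activator that the pathway itself induces, was at 40.1, 4.15 and 10.7 CPM in LER+LIG, against 103, 129 and 86.5 CPM in LER and 57.2, 104 and 12.3 CPM in NER. All LER+LIG libraries were below all LER libraries, by the widest relative gap among the 8 tested genes, and NER again spanned both. Group means were 18.3 ± 19.2 CPM in LER+LIG, 106 ± 21.6 CPM in LER and, for NER, 57.8 ± 45.8 CPM (SD, n = 3 each). The log2 fold change for LER+LIG over LER was -2.54 ± 0.88 (SE), with an unadjusted p of 0.0178 and an adjusted p of 0.358 in edgeR's test, and an adjusted p of 0.0558 in DESeq2's Wald test. Over all its alternatives the adjusted p of Gli1 ran from 0.0193 to 0.825. For LER+LIG over NER it was -1.66 ± 0.86, and for LER over NER 0.88 ± 0.84.

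Gli2, known as the main activator at the start of the response, was at 19.5, 42.7 and 39.9 CPM in LER+LIG, against 46.4, 63.0 and 48.4 CPM in LER and 44.6, 46.9 and 48.1 CPM in NER. The LER+LIG libraries were below all others, and LER+LIG replicate 1 was the lowest by a wide margin. Here NER replicate 3 was the highest of the NER libraries, unlike for Ihh, Ptch1 and Gli1. Its log2 fold change was -0.63 ± 0.30 (SE) for LER+LIG over LER and -0.45 ± 0.30 for LER+LIG over NER, with unadjusted p of 0.0619 and 0.161 in edgeR's test.

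Gli3, which acts largely as a repressor when the pathway is quiet, was at 6.98, 16.5 and 14.5 CPM in LER+LIG, against 17.0, 28.3 and 31.6 CPM in LER and 29.0, 25.7 and 24.4 CPM in NER. The LER+LIG libraries were below all LER and NER libraries, although LER+LIG replicate 2 and LER replicate 1 were nearly level. Gli3 had a log2 fold change of -1.02 ± 0.36 (SE) for LER+LIG over LER, with an unadjusted p of 0.0198 and an adjusted p of 0.361 in edgeR's test. It was -1.06 ± 0.36 for LER+LIG over NER, with an unadjusted p of 0.0166 and an adjusted p of 0.868 in the same test, and -0.04 ± 0.36 for LER over NER.

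Nr2f2, the stromal nuclear receptor gene, was at 252, 193 and 168 CPM in LER+LIG, against 224, 262 and 280 CPM in LER and 239, 293 and 199 CPM in NER. The groups overlapped, and the highest library was 1.74 times the lowest, the narrowest range among the 8 tested genes. Nr2f2 had a log2 fold change of -0.32 ± 0.24 (SE) for LER+LIG over LER, with an unadjusted p of 0.206 in edgeR's test.

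Hand2 was at 23.3, 4.97 and 6.19 CPM in LER+LIG, against 13.3, 3.35 and 11.7 CPM in LER and 4.98, 18.1 and 4.63 CPM in NER. Each group held at least 1 low and 1 high library, and the group means of 11.5 ± 10.3 CPM in LER+LIG, 9.46 ± 5.35 CPM in LER and, for NER, 9.24 ± 7.69 CPM (SD, n = 3 each) differed by less than that spread. Its log2 fold change for LER+LIG over LER, 0.28 ± 0.79 (SE), was the only one of the 8 above 0, and it was -0.79 without LER+LIG replicate 1.

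Per kilobase of gene length, the mean levels in LER ran from 83.8 ± 9.39 CPM per kb for Nr2f2 and 39.7 ± 2.49 for Smo, through 27.2 ± 5.52 for Gli1, 20.7 ± 10.6 for Ihh, 14.7 ± 8.30 for Hand2, 12.5 ± 3.11 for Ptch1 and 8.26 ± 1.42 for Gli2, to 2.66 ± 0.80 for Gli3 and 0.54 ± 0.46 for Hhip (SD, n = 3). From Gli1 through Ihh and Hand2 to Ptch1, each gene differed from the next in this order by less than their spread. In LER+LIG the order was the same at the top, with Nr2f2 at 67.1 ± 14.0 and Smo at 28.8 ± 10.3 CPM per kb, but Gli1, at 4.69 ± 4.91, was no longer above Gli2, at 5.35 ± 1.99 (SD, n = 3). In NER these 2 genes stood at 14.8 ± 11.7 and 7.31 ± 0.28 CPM per kb (SD, n = 3). The ratio of Gli1 to Gli2 per kilobase was 1.32 ± 1.77 in LER+LIG, 3.29 ± 0.36 in LER and 2.04 ± 1.60 in NER. By library it was 3.35, 0.159 and 0.436 in LER+LIG replicates 1 to 3 and 2.09, 3.61 and 0.418 in NER replicates 1 to 3. LER+LIG and LER gave p = 0.3 in a two-sided exact permutation test of its logarithm (n = 3 each, smallest possible p 0.1). The ratio of Ptch1 to Smo, the inhibitor and its target, was 0.184 ± 0.058 in LER+LIG and 0.319 ± 0.094 in LER (exact permutation p = 0.2, n = 3 each). That of Gli2 to Gli3 was 4.11 ± 0.18 in LER+LIG and 2.70 ± 0.34 in NER, with no overlap (exact permutation p = 0.1, n = 3 each). In LER it was 3.28 ± 0.91 and overlapped LER+LIG, with LER replicate 1 at 4.14. Over the 18 comparisons of 6 such ratios the Benjamini-Hochberg adjusted p of each of these 3 was 0.75.

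For LER+LIG over LER, the comparison that asks what LIG does after the drugs, the log2 fold change was below 0 in 7 of the 8 tested genes, with a median of -0.82 beside 0.07 over all tested genes. At an adjusted p under 0.05 edgeR called none of the 8, as it called 0% of all genes. The smallest adjusted p of any gene was 0.0515, and 1777 genes had an unadjusted p under 0.05. Ptch1, Gli1 and Gli3, 3 of the 8, had an unadjusted p under 0.05 with a lower level in LER+LIG, beside 5.28% of all genes. Ptch1, Gli1, Gli2 and Gli3, 4 of the 8, had lower LER+LIG libraries with no overlap, beside 10.0% of all genes. DESeq2 called none of the 8 and 2.47% of the genes for which it gave an adjusted p. In the authors' deposited table, whose calls match an unadjusted p under 0.05 with a log2 fold change of 1 or more in size, 4 of the 9 genes were called down, beside 3.37% of its rows. The log2 fold changes in the authors' deposited table were -1.32 for Ptch1, -2.53 for Gli1, -1.04 for Gli3 and -5.80 for Hhip.

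**Figure D2:**
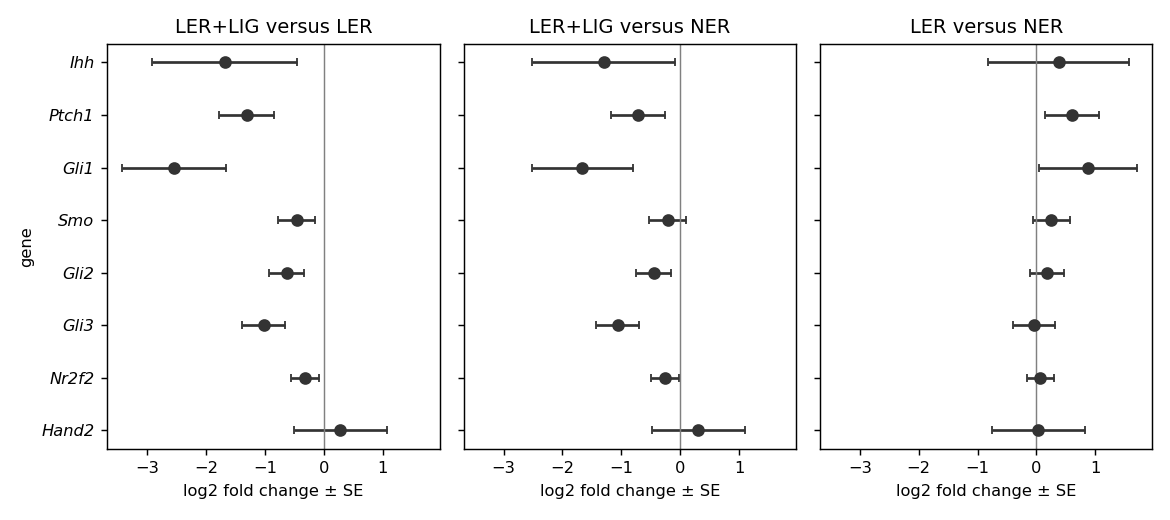
Log2 fold changes from edgeR (x axis, points, with bars of 1 SE on each side) of the 8 tested genes (y axis) for LER+LIG over LER, LER+LIG over NER and LER over NER. Gli1 has the lowest value for LER+LIG over LER, -2.54, and Hand2 the only one above 0, 0.28, while for LER over NER the bars of Ptch1 and Gli1 alone lie wholly above 0.

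For LER+LIG over NER, which sets the drugs plus LIG against neither, 7 of the 8 log2 fold changes were below 0, with a median of -0.58 beside 0.04 over all tested genes. Again edgeR called none of the 8 and none of all genes, and 775 genes had an unadjusted p under 0.05. Gli3 alone of the 8 had an unadjusted p under 0.05 with a lower level in LER+LIG, beside 2.70% of all genes. Gli2 and Gli3, 2 of the 8, did not overlap and were lower in LER+LIG, beside 4.10% of all genes. This comparison shares its LER+LIG libraries with the one before.

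For LER over NER, which tests the drugs alone, 7 of the 8 log2 fold changes were above 0, with a median of 0.22 beside -0.02 over all tested genes. None of the 8 was called by edgeR, none had an unadjusted p under 0.05, beside 0.871% of all genes in either direction, and none had groups without overlap, beside 7.15%. DESeq2 called none of the 8 and 0.0141% of the genes for which it gave an adjusted p. The authors' deposited table called none of the 9 in this comparison. The values above 0 rested in part on NER replicate 3: without it Ptch1 was at 0.20 and Gli1 at 0.40, and Ihh, Nr2f2 and Hand2 were below 0.

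Across libraries rather than groups, the genes fell into patterns that the group means hide. In LER+LIG replicates 2 and 3 and NER replicate 3, the 3 that stand apart over all genes, Ihh was at 1.24 to 5.38 CPM, against 19.8 to 74.7 CPM in the other 6. Gli1 was at 4.15 to 12.3 CPM in the 3 and 40.1 to 129 CPM in the other 6, and Ptch1 at 34.7 to 58.7 CPM and 75.8 to 186 CPM. Nr2f2 was at 168 to 199 CPM in the 3 and 224 to 293 CPM in the other 6. Smo, Gli2, Gli3, Hhip and Hand2 overlapped between the 3 and the other 6. NER replicate 3, which received neither the drugs nor LIG, thus had low Ihh, Gli1 and Ptch1 like 2 of the 3 LER+LIG libraries. These are ranges of libraries that were found to stand apart in the data, and no test was made of them. The 3 were set apart by all tested genes together, so genes outside the axis separate them too. The share of all genes that does so was not counted, so the separation is not shown to be particular to the axis.

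**Figure D3:**
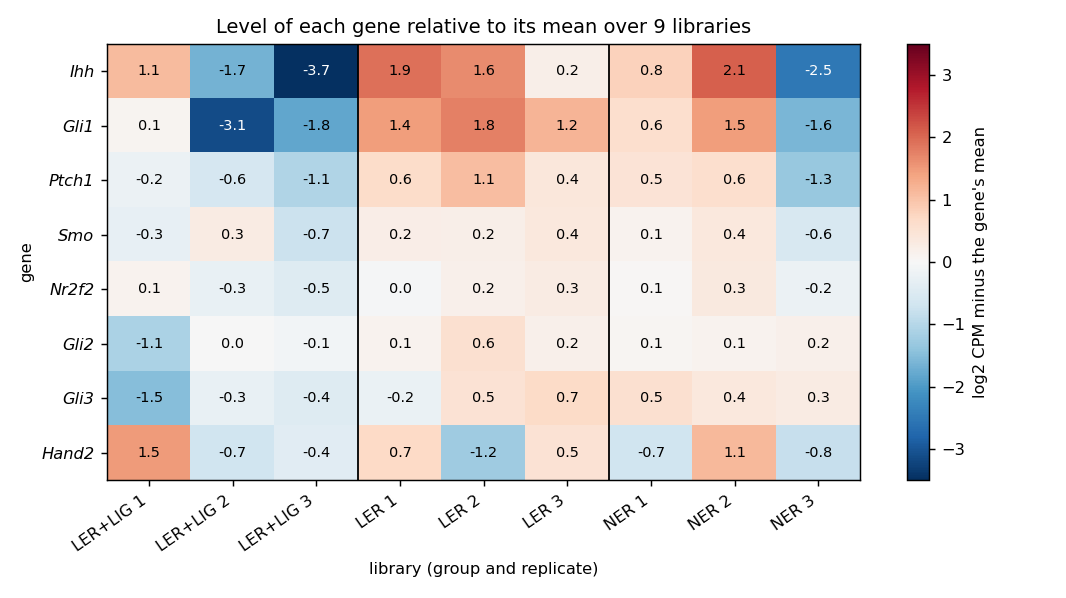
Log2 CPM of the 8 tested genes (rows) in each library (columns, grouped as LER+LIG, LER and NER), each as the difference from the gene's own mean over the 9 libraries and coloured from blue (below) to red (above). Ihh, Gli1 and Ptch1 are lowest in LER+LIG replicates 2 and 3 and NER replicate 3, whereas Gli2 and Gli3 are lowest in LER+LIG replicate 1.

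With LER+LIG replicates 2 and 3 and NER replicate 3 left out, LER+LIG is left with 1 library, whose spread is assumed to be that of the other groups. In that fit the log2 fold changes for LER+LIG over LER were -0.98 for Ptch1, -1.44 for Gli1, -1.46 for Gli2 and -1.91 for Gli3. The value for Ihh was -0.36, against -1.68 with all libraries. The library left, LER+LIG replicate 1, had a trend along gene length that is described below. In log2 units that trend was -0.55 at the length of Ptch1, -0.15 at Gli1, -0.34 at Gli2 and -0.48 at Gli3. No length offset was used in this fit, and its values describe 1 library against 3. Over the alternatives of Ptch1, Gli1, Gli2 and Gli3, the highest edgeR adjusted p were 0.825 to 0.83.

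Among the 11459 genes with a mean of at least 5 CPM, likeness of pattern was measured as the root mean square difference of centred log2 CPM over the 9 libraries. C1qtnf5, Cilp2, Ptger2, which encodes a prostaglandin E2 receptor, and Mogat2 were among the 5 genes most like Ihh, at 0.637 to 0.731, beside a median of 2.02 over all genes. Gli1 stood at place 52 with 1.01, Ptch1 at place 189 with 1.31, and Gli3 and Gli2 near the median at 2.00 and 2.01. The genes most like Ptch1 were Olfml2b, Tspan33, Nck2, Prickle1 and Rnf144b, at 0.245 to 0.271, with Smo at place 304. The 5 most like Hand2 were LOC100911372, Cmc2, Cdca8, Cox6b2 and Kctd14, at 0.428 to 0.540. The likeness is over the same 9 libraries, so depth and tissue make-up are shared by all of these genes.

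Markers of the epithelium, the source of Ihh in the mouse, had a log2 fold change above 0 for LER+LIG over LER in 11 of 15. Their summed level over 15 genes was 879.4, 2856 and 2407 CPM in LER+LIG, against 1676, 1603 and 989.0 CPM in LER and 830.3, 1195 and 4185 CPM in NER. It was highest in the 3 libraries where Ihh was lowest. Relative to the mean log2 CPM of these markers, Ihh was at 0.15, -4.39 and -6.15 in LER+LIG, -0.01, -0.14 and -0.83 in LER and -0.08, 0.71 and -5.54 in NER. Epcam, a defining epithelial marker, had a log2 fold change of -0.09 ± 0.32 (SE) for LER+LIG over LER. Single markers did not all follow the sum. Cldn3, which encodes a tight junction claudin, was at 205, 161 and 53.6 CPM in LER+LIG, against 383, 379 and 278 CPM in LER and 176, 315 and 70.1 CPM in NER, so it was lowest in the 3 libraries where Ihh was lowest. Krt8, a keratin gene of simple epithelia, was at 584, 611 and 1260 CPM in these 3 and at 66.2 to 165 CPM in the other 6. The part of epithelial content in the level of Ihh was not tested.

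**Figure D4:**
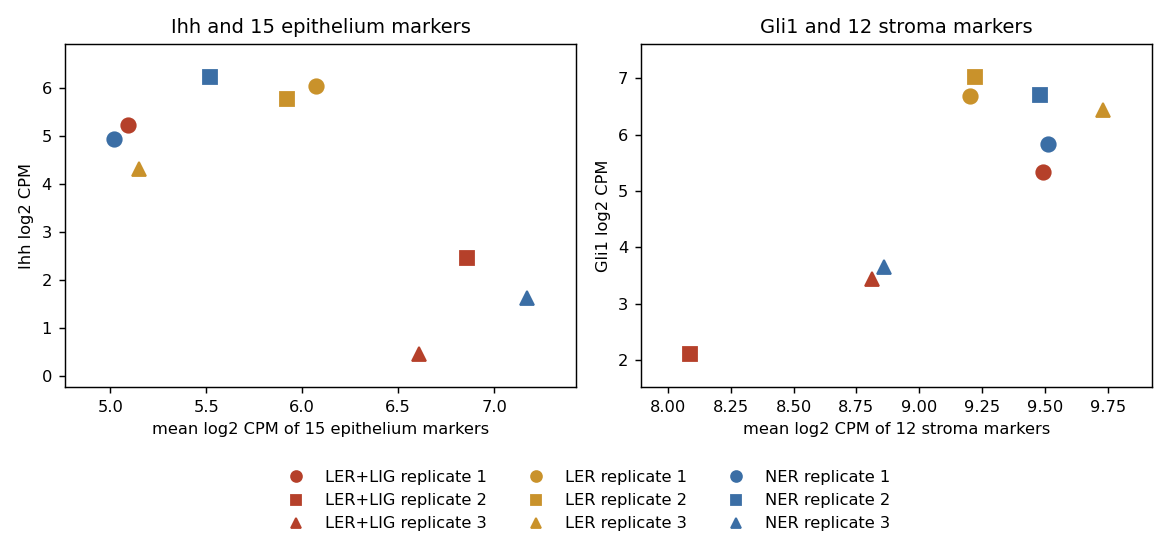
Left, Ihh log2 CPM (y axis) against the mean log2 CPM of 15 epithelium markers (x axis), and right, Gli1 log2 CPM against that of 12 stroma markers, with 1 point per library, coloured by group. LER+LIG replicates 2 and 3 and NER replicate 3 lie at the lower right of the left panel, with Ihh at 1.24 to 5.38 CPM, and at the lower left of the right panel, with Gli1 at 4.15 to 12.3 CPM.

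For the stromal genes, the stroma markers were measured in the same way, and 9 of the 12 tested had a log2 fold change below 0 for LER+LIG over LER. Their sum was 48390, 10550 and 39390 CPM in LER+LIG, against 40570, 33140 and 47950 CPM in LER and 44540, 45250 and 41810 CPM in NER, and by this sum, to which abundant genes give most, LER+LIG replicate 2 was the low one. Their mean log2 CPM was 9.49, 8.09 and 8.81 in LER+LIG, against 9.20, 9.22 and 9.73 in LER and 9.51, 9.48 and 8.86 in NER, so by this measure all 3 libraries that stand apart were below the other 6. Relative to the mean log2 CPM of these markers, Gli1 was at -4.16, -5.98 and -5.38 in LER+LIG, against -2.51, -2.20 and -3.29 in LER and -3.67, -2.78 and -5.22 in NER. Gli1 in LER+LIG stayed below LER in every library on this scale, with a mean difference of -2.51 log2 units. Without LER+LIG replicate 2 its log2 fold change was -2.09. On the same scale the mean differences between LER+LIG and LER were -0.73 for Ptch1, -0.46 for Gli3 and -0.11 for Gli2, and 0.07 for Smo, 0.25 for Nr2f2 and 0.74 for Hand2. Ptch1, Gli2 and Gli3, which did not overlap between LER+LIG and LER in CPM, overlapped on this scale. Ptch1 was at -3.24, -2.21 and -3.41 in LER+LIG, against -2.10, -1.68 and -2.88 in LER. For Gli2 the values were -5.19, -2.67 and -3.49 in LER+LIG, against -3.66, -3.24 and -4.13 in LER, and for Gli3 they were -6.65, -4.03 and -4.94 in LER+LIG, against -5.10, -4.39 and -4.74 in LER. LER+LIG replicate 2 was above all LER libraries for Gli2 and Gli3, and above LER replicate 3 for Ptch1. The part of stromal content in the fold changes of these genes was not tested.

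LER+LIG replicate 1 differed from the other libraries in another way, along gene length. The 3558 shortest of the tested genes, up to 1647 bases, had a median log2 difference of 0.50 between this library and the other 8, and the 3558 longest, from 4575 bases, had -0.41. In the other 8 libraries these medians lay between -0.14 and 0.19. Hand2, the shortest of the 9 genes at 645 bases, was 1.69 log2 units above the other libraries there, and Ihh, at 2272 bases, 1.25 above. Gli2 at 6366 bases and Gli3 at 9650 bases were 1.26 and 1.67 log2 units below, while Ptch1, the longest at 11661 bases, was at -0.24. The length trend of all tested genes in this library was smaller than the shifts of Hand2, Ihh, Gli2 and Gli3. Against the mean over the 9 libraries, it was 0.58 log2 units at the length of Hand2 and 0.05 at that of Ihh. At the lengths of Gli2, Gli3 and Ptch1 it was -0.34, -0.48 and -0.55.

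**Figure D5:**
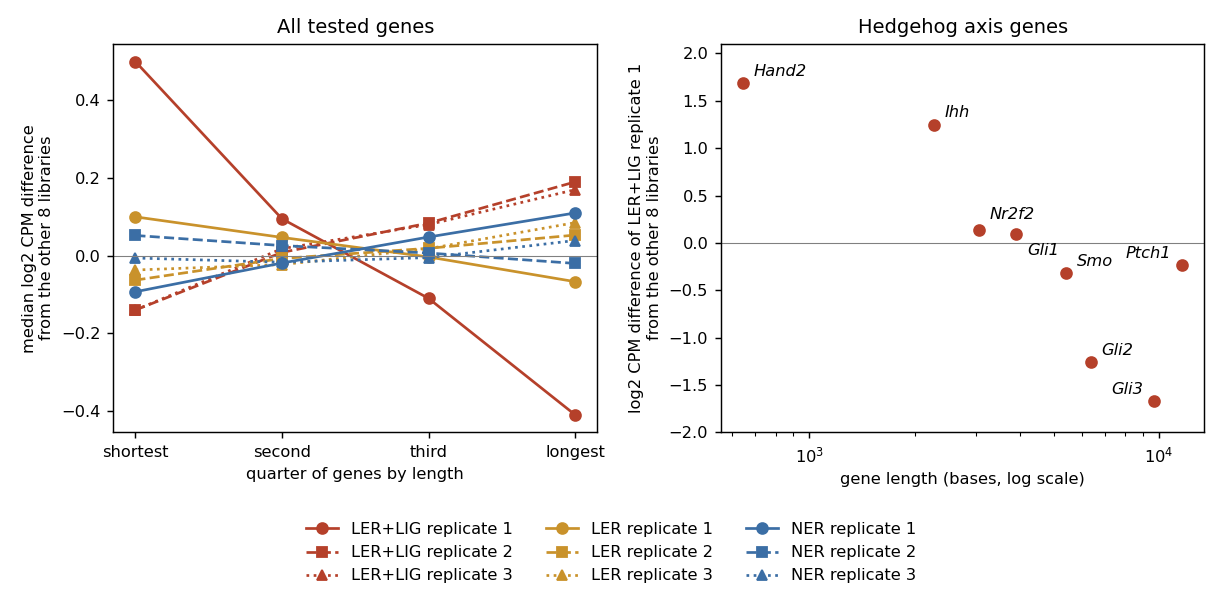
Left, median log2 CPM difference of each library from the other 8 (y axis) in 4 classes of 3558 tested genes by length, shortest to longest (x axis), and right, the difference of LER+LIG replicate 1 from the other 8 for each of the 8 tested axis genes (y axis) against gene length in bases (x axis, log scale). LER+LIG replicate 1 runs from 0.50 in the shortest class to -0.41 in the longest, and Hand2 and Gli3 lie at 1.69 and -1.67.

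With an offset for gene length in each library, a setting added after the data were seen, the log2 fold changes for LER+LIG over LER were -1.11 for Ptch1, -2.43 for Gli1, -0.64 for Gli2, -1.01 for Gli3 and 0.05 for Hand2. The unadjusted p of edgeR's test was then 0.0709, 0.0262, 0.0163, 0.00368 and 0.939. None of the 8 genes was called with this offset.

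The other genes of the pathway were counted by list for LER+LIG over LER, and edgeR called no gene of any list in any of the 3 comparisons. Of 13 tested genes for other Hedgehog ligands, their release and reception, 11 had a log2 fold change below 0, with a median of -0.55 beside 0.07 over all genes. Shh had 0 counts in every library, and Dhh was at 1.02 to 4.64 CPM in LER+LIG, 2.70 to 5.43 CPM in LER and 3.48 to 4.75 CPM in NER, so per kilobase Ihh stood above Dhh in every library except LER+LIG replicate 3 and NER replicate 3. The co-receptor genes Gas1 and Boc had log2 fold changes of -0.91 ± 0.30 and -0.93 ± 0.33 (SE), with unadjusted p of 0.0137 and 0.0194 in edgeR's test. Lrp2, an endocytic receptor of the epithelium, had -2.56 ± 1.24 (SE).

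Of 18 genes that carry the signal to GLI, 13 had a log2 fold change below 0 for LER+LIG over LER, with a median of -0.51, and 7 had an unadjusted p under 0.05 in edgeR's test with a lower level in LER+LIG, beside 5.28% of all genes. Iqce, a component of the ciliary complex that passes on the Smoothened signal, was at 5.73, 6.33 and 5.41 CPM in LER+LIG, against 12.0, 12.5 and 11.1 CPM in LER and 10.8, 9.06 and 9.78 CPM in NER. LER+LIG was below the other groups in every library, and DESeq2 called the difference from LER with an adjusted p of 0.00316. Glis2, a GLI-related zinc finger gene, was also called by DESeq2, with an adjusted p of 0.0496 and an edgeR log2 fold change of -0.66 ± 0.20 (SE). Sufu, the cytoplasmic inhibitor of GLI proteins, had -0.45 ± 0.27 (SE). Of 19 genes of transport in the primary cilium, where the signal is relayed, 14 had a value above 0, with a median of 0.13.

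Among 16 tested genes that respond to Hedgehog in other tissues, 11 had a log2 fold change below 0 for LER+LIG over LER, with a median of -0.24. The cyclin genes Ccnd2 and Ccnd1 had -1.39 ± 0.24 and -0.85 ± 0.19 (SE), and DESeq2 called both, with adjusted p of 7.97e-05 and 0.00144. Ccnd2 was at 24.8, 46.0 and 35.7 CPM in LER+LIG, against 97.4, 98.4 and 82.9 CPM in LER and 81.8, 73.3 and 72.4 CPM in NER, so LER+LIG was below both groups without overlap. Mycn, a growth-related transcription factor gene, lay the other way, at 8.81, 36.1 and 24.2 CPM in LER+LIG, against 7.88, 6.43 and 5.19 CPM in LER and 5.32, 5.83 and 28.4 CPM in NER. LER+LIG was above LER without overlap, with a log2 fold change of 1.83 ± 0.72 (SE) and an unadjusted p of 0.0315 in edgeR's test, and the highest 3 libraries were those that stand apart.

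A further list covered the progesterone receptor and Ihh, and not all of its genes are known regulators of Ihh. Of its 19 genes, 15 had a log2 fold change below 0, with a median of -0.35. Lrp2 is counted here and among the genes of ligands, release and reception. Sox17 and Gata2, transcription factor genes that lie upstream of Ihh in the mouse uterus, had -1.29 ± 0.30 and -0.76 ± 0.20 (SE), and DESeq2 called both, with adjusted p of 0.00963 and 0.0123. Sox17 was at 137, 94.0 and 112 CPM in LER+LIG, against 329, 325 and 187 CPM in LER and 154, 216 and 126 CPM in NER. Pgr, the progesterone receptor gene, was at 40.4, 59.3 and 312 CPM in LER+LIG, against 132, 213 and 172 CPM in LER and 155, 124 and 432 CPM in NER. It was highest in LER+LIG replicate 3 and NER replicate 3, where Ihh was lowest, and low in LER+LIG replicate 1, where Ihh was at 37.5 CPM. Esr1 had a log2 fold change of 0.06 ± 0.30 (SE).

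Of 19 stromal mediators and decidual factors, 10 had a log2 fold change below 0, with a median of -0.18. Bmp7 had -0.87 ± 0.27 (SE) and the cell cycle inhibitor gene Cdkn1c 0.92 ± 0.32, with unadjusted p of 0.0103 and 0.0185 in edgeR's test. Fgf9 was at 4.82, 0.953 and 0.696 CPM in LER+LIG, against 9.44, 7.43 and 7.61 CPM in LER and 8.64, 9.76 and 0.869 CPM in NER, and so was lowest in the same 3 libraries as Ihh. Fgf1, Fgf2 and Fgf10 had log2 fold changes of -1.48 ± 0.79, -0.18 ± 0.67 and 0.70 ± 0.38 (SE). Bmp2 and Wnt4, which mark the onset of decidual change in the mouse, had 0.49 ± 0.50 and 0.34 ± 0.56 (SE).

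Of 11 oestrogen-responsive epithelial genes, 8 had a log2 fold change above 0, with a median of 1.5. Their summed level was 882.4, 15150 and 3644 CPM in LER+LIG, against 672.3, 610.0 and 514.8 CPM in LER and 671.4, 800.2 and 6002 CPM in NER, highest in the 3 libraries with the least Ihh. C3 gave most of the sum in these 3. The mean log2 CPM of the 11 genes was also highest there, at 6.60 to 6.95 against 4.13 to 4.53 in the other 6. Not all of the genes followed, and Aqp5 lay the other way, at 18.6 to 36.6 CPM in the 3 and 198 to 359 CPM in the other 6. Muc1, a surface mucin gene, was at 12.4, 102 and 37.8 CPM in LER+LIG, against 7.94, 9.51 and 8.61 CPM in LER and 11.1, 12.5 and 64.7 CPM in NER. C3, which encodes a complement protein, was at 18.9, 13100 and 2170 CPM in LER+LIG, against 18.5, 8.64 and 12.8 CPM in LER and 14.1, 25.4 and 4350 CPM in NER. DESeq2 called C3 and Lcn2, the gene of lipocalin 2, with adjusted p of 0.00397 and 0.00186 for LER+LIG over LER. By edgeR the 8 genes of these lists that DESeq2 called had adjusted p of 0.334 to 0.356. The summed level of leukocyte markers was highest in the same 3 libraries, and all 12 had a log2 fold change above 0 for LER+LIG over LER. Single markers did not all follow the sum, and Cd48 was highest in LER+LIG replicate 1, at 395 CPM. The sum was 1474 to 3266 CPM in LER+LIG, 785.7 to 1137 CPM in LER and 818.4 to 4198 CPM in NER. Of the remaining marker lists, log2 fold changes for LER+LIG over LER were below 0 in 10 of 12 smooth muscle genes, 8 of 10 endothelium genes and 8 of 8 adipocyte genes. They were above 0 in 4 of 6 genes of stratified squamous epithelium and 2 of 3 of glandular epithelium. The adipocyte sum was at 946.9 CPM in LER replicate 1, against 68.14 to 164.2 CPM in the other 8 libraries. The part of these cells and of hormonal state in the levels of the Hedgehog genes was not tested.

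The lists were also counted for LER+LIG over LER without LER+LIG replicates 2 and 3 and NER replicate 3, a setting added for the lists after the data were seen, in which 1 LER+LIG library stands against 3 and edgeR called 26.7% of all genes. Oestrogen-responsive epithelial genes then had 5 of 10 log2 fold changes above 0, with a median of -0.015 beside -0.082 over all genes. C3 was at 0.47, against 8.57 with all libraries, Muc1 at 0.48, against 2.54, and Lcn2 at 1.59, against 4.18. Epithelium markers had 14 of 15 values below 0, with a median of -0.79, where 11 of 15 were above 0 with all libraries. Stroma markers had 6 of 12 below 0, with a median of -0.091, and leukocyte markers had 10 of 12 above 0, with a median of 0.49. Values were below 0 in 8 of 12 smooth muscle genes, 9 of 10 endothelium genes, 10 of 10 adipocyte genes, 5 of 7 genes of stratified squamous epithelium and 2 of 3 of glandular epithelium. Below 0 were 12 of 13 genes of ligands, release and reception, 16 of 18 that carry the signal to GLI and 11 of 16 that respond to Hedgehog. So were 13 of 19 genes of the progesterone receptor and Ihh list and 15 of 20 stromal mediators and decidual factors. Genes of transport in the cilium had 11 of 19 below 0, where 14 were above 0 with all libraries. Among the single genes, Ccnd2 was at -1.93, Ccnd1 at -0.84, Iqce at -1.08, Glis2 at -0.66, Gata2 at -0.97 and Sox17 at -1.06. Mycn was at 0.41, against 1.83 with all libraries. The LER+LIG library left was replicate 1, with the trend along gene length given above, and no length offset was used.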

How the data were processed

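Per the file headers, the authors' deposited expression table holds read counts per gene as whole numbers and FPKM, scaled to gene length and library total; FPKM was used only to recover gene lengths. Per the file headers, the authors' deposited table of comparisons gives log2 fold changes and unadjusted p-values. Not given in the sources used here: the aligner, counter, strand setting, genome build and the test of that table. Reads of overlapping or antisense genes may therefore be mixed.

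The tools were edgeR 4.0.16 under R 4.3.3 (filterByExpr, TMM with factors of 0.867 to 1.05, robust glmQLFit and glmQLFTest over all 9 libraries) with Benjamini-Hochberg adjustment over 14232 genes and calls at an adjusted p under 0.05. Standard errors are log2 fold change over the square root of F. Log2 CPM used a prior count of 2. DESeq2 1.42.0, DESeq2 size factors, no filter, 2-group fits, the replicate block, leaving out each library, and leaving out the 3 libraries that stand apart were alternatives. A length offset was added after the data were seen. The procedure was run on simulated data with far less spread between libraries than these data have. That run therefore does not show what differences could be called at the spread found here. Replicate numbers come from the sample titles, and every 2 libraries differed by more than sampling noise. Rows without a symbol took at most 0.00306% of the counts.

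The members, lists and libraries to leave out were chosen with earlier results of these data known. The 9 members were always named, and Aqp5 and Cd48 were named as exceptions to the sums of their lists. From 7 pathway lists and 8 marker lists, up to 3 tested genes with the smallest p for LER+LIG over LER or LER over NER could be named, besides Shh, Dhh, Sufu, Pgr, Esr1, Muc1, Epcam, Pdgfra, Acta2, Bmp2, Wnt4 and the tested Fgf genes. For Ihh, Ptch1 and Hand2 the 5 genes with the most similar pattern were named. A gene that this rule names is not reported here.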

Additional observations from a re-analysis of the deposited data

How the results depend on the processing

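The number of genes called by edgeR, 0 in each of the 3 comparisons, stayed at 0 with DESeq2 size factors, with fits of only the 2 groups compared and with the replicate block. DESeq2's Wald test called 349 genes for LER+LIG over LER, 23 for LER+LIG over NER and 2 for LER over NER. Without LER+LIG replicates 2 and 3 and NER replicate 3 edgeR called 3922, 2731 and 0, with 1 LER+LIG library assumed to vary like the others. For LER+LIG over LER it called 1 gene with no filter, 1 with the length offset, and 0 to 1 when each library was left out, with the 1 call arising without NER replicate 3, LER+LIG replicate 1 or LER+LIG replicate 3. The cause was not tested.

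Of 384 values of the 8 tested genes under alternatives, 360 kept their direction and side of the threshold. Another 6 passed it, all without the 3 libraries, namely Ptch1, Gli1, Gli2 and Gli3 for LER+LIG over LER and, for LER+LIG over NER, Gli2 at -1.26 and Gli3 at -2.0 on the log2 scale. The other 18 changed sign. For LER over NER these were Ihh at -0.17, Nr2f2 at -0.0603 and Hand2 at -0.29 without the 3 libraries, and Hand2 at -0.0748 with the replicate block. Leaving out each library gave, for LER over NER, -0.17 to 1.48 for Ihh, -0.22 to 0.19 for Gli3, -0.0602 to 0.221 for Nr2f2 and -0.29 to 0.98 for Hand2. It gave -0.79 to 0.62 for Hand2 in LER+LIG over LER, and -0.54 to 0.00437 for Smo and -0.75 to 1.25 for Hand2 in LER+LIG over NER. For LER+LIG over LER it gave -3.88 to -2.09 for Gli1, -1.57 to -1.11 for Ptch1 and -3.84 to -1.14 for Ihh.

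Replicate numbers are not stated to pair animals. Deviations of same-numbered libraries correlated at 0.0739 to 0.19 between LER+LIG and LER, -0.189 to 0.512 between LER+LIG and NER and -0.0954 to -0.0185 between LER and NER. For differently numbered libraries the ranges were -0.13 to 0.0588, -0.548 to 0.535 and -0.0433 to 0.107 in the same order. These correlations do not decide whether libraries are paired. As no label states pairs, the numbers were not taken as pairs. With the replicate block Ihh was at -2.52 for LER+LIG over LER, and 0 genes were called in each comparison.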
